A study of Mus musculus with 12 samples.

Results

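The regions described here are the m6A peaks that were called in every one of 6 immunoprecipitated (IP) libraries of J1 mouse embryonic stem cells. They were chosen from the 7886 peaks of 1 scramble library. A peak was taken when a peak of each of the 5 other libraries overlapped it by at least 1 nt on the same strand. This held for 2231 peaks, which is 28.3% of the list. They lie in 1856 of the 4931 genes that had any peak in that library (37.6%). Presence, width, enrichment and the change after knockdown all come from the contrast that chose the peaks, so they are given as descriptions without a test.

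N6-methyladenosine (m6A) is an internal mark of mRNA. METTL3, the catalytic subunit, and METTL14, its RNA-binding partner, deposit it together, mostly at adenosines in a short consensus of which GGACU is the best known form. YTH-domain proteins bind the mark, and methylated mRNAs of embryonic stem cells are known to turn over faster. In mRNA the mark is known to collect near stop codons and in long internal exons.

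The J1 cells, a mouse embryonic stem cell line, were grown with LIF on a layer of irradiated mouse embryonic fibroblasts. They were infected with a lentivirus that expressed a scramble control hairpin, a hairpin against Mettl14 mRNA or one against Mettl3 mRNA, and were selected with puromycin. Each group had 2 IP libraries, and the series text speaks of 1 biological replicate for each, so the spread between libraries may be technical. The tables form 2 sets, each with 1 scramble, 1 Mettl14 knockdown and 1 Mettl3 knockdown library. Which numbered sample belongs to which set is not stated in the sources used here, and the chosen peaks were anchored on the scramble library of set 1. The lists of set 1 held 7886 (scramble), 5717 (Mettl14) and 5087 (Mettl3) peaks, and those of set 2 held 5438, 4367 and 4577. Knockdown strength and RNA levels are not part of these tables. Of 10 marker genes of embryonic stem cells, 3 had a peak in all 6 libraries (Sox2, Klf4 and Sall4) and 1 more had a peak in some, while none of 10 feeder fibroblast markers had a peak in all 6 and 3 had one in some. A peak list shows methylated transcripts only, so these counts are no measure of cell makeup.

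The sequences below are the 29 nt around the GGACT nearest to the centre of 10 such peaks, read 5′ to 3′ from GENCODE M21 transcripts (mm10), with GGACT in capitals. They show the motif in genes that recur in the results: paralogous readers and scaffold proteins, pluripotency factors, a chromatin enzyme, and the peaks with the most GGACT copies and with among the steadiest and the highest enrichment.
Ythdf1: gaagtcccctgtGGACTacggcaccagcg
Ythdf2: gaaatctgctgtGGACTacaacacatgtg
Axin1: tgctgacctgctGGACTtctggtttgcct
Axin2: tgtggatacgctGGACTtctggtttgctt
Klf4: agctccccaccaGGACTacccctacactg
Sox2: catgtgagggctGGACTgcgaactggaga
Setd1b: gccgcttctgctGGACTgcagtttgtcaa
Son: atccaataccatGGACTcccagatgctag
Atp8b2: cctctgcctggtGGACTgctctgtgagcc
Nlrp4f: ctgagggcatgtGGACTgacacatttgtg

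The Ythdf1 window is at chr2:180910956-180910984 on the minus strand, in coding sequence with its central A 307 nt before the stop codon. The Ythdf2 window is at chr4:132204401-132204429 on the minus strand, 304 nt before the stop codon. These readers of the mark are paralogues, and 21 of the 29 bases are identical. The Axin1 window (chr17:26143031-26143059, plus strand) and the Axin2 window (chr11:108923599-108923627, plus strand) lie in coding sequence of the scaffold proteins of the β-catenin destruction complex and share 23 of 29 bases. Both pairs were picked after the sites had been seen, and paralogues share coding sequence in general. The Klf4 window (chr4:55530141-55530169, minus strand) is in coding sequence. The Sox2 window (chr3:34651369-34651397, plus strand) spans the stop codon, with its A in the 3′ UTR, 11 nt past the last coding base. The Setd1b window (chr5:123152354-123152382, plus strand), the Son window (chr16:91656532-91656560, plus strand) and the Nlrp4f window (chr13:65194597-65194625, minus strand) are in coding sequence of internal exons. The Atp8b2 window (chr3:89941038-89941066, minus strand) is in the 3′ UTR, 104 nt past the last coding base. All distances from the stop codon given here are counted from the last coding base before it.

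Peaks found in all 6 libraries were the most numerous class of each list. Of the scramble set 1 peaks, 1733 were found in that library alone, 1224 in 2 libraries, 963 in 3, 823 in 4, 912 in 5 and 2231 in 6. Counted in the other lists, the peaks with a match in all libraries numbered 2222 to 2311, so the number barely depended on which list was counted. They made up 40.9% of the scramble set 2 list, 40.4% and 51.7% of the Mettl14 knockdown lists and 45.3% and 50.1% of the Mettl3 knockdown lists. Of the 912 peaks missing from 1 library, 382 were missing from Mettl14 knockdown set 2, 188 from Mettl3 knockdown set 2, 181 from scramble set 2, 101 from Mettl3 knockdown set 1 and 60 from Mettl14 knockdown set 1. The library most often missing is also the one with the shortest list. Only 33 of the 912 had a peak of the missing library within 100 nt.

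**Figure D1:**
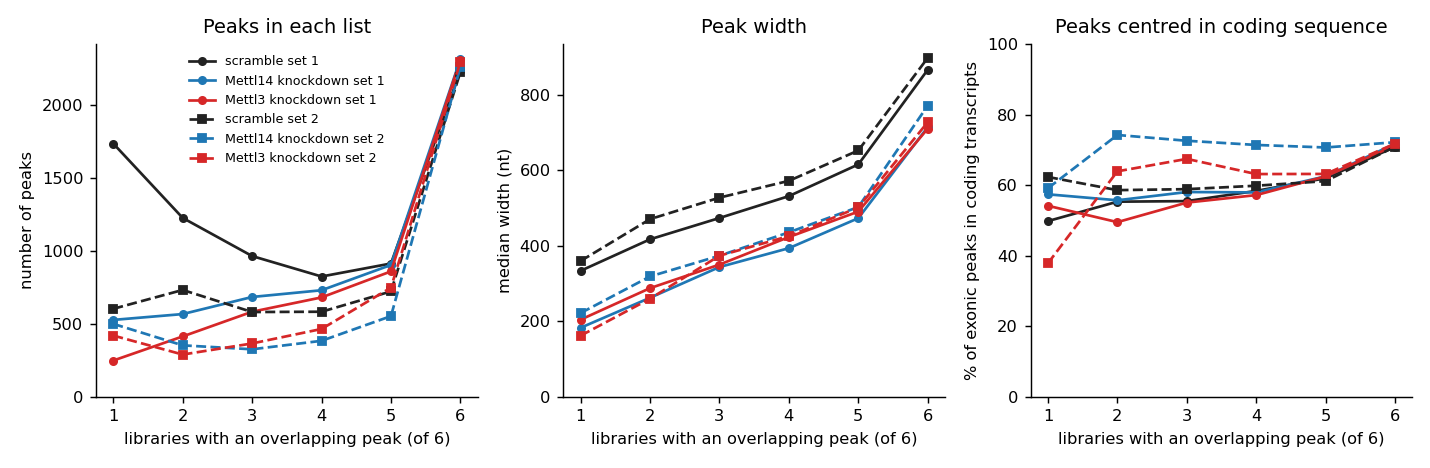
For each of the 6 lists (color by shRNA, dashed lines for set 2), the panels plot the number of peaks, their median width in nt and the share centred in coding sequence against the number of libraries with an overlapping peak. In each list the peaks found in all 6 libraries are the most numerous (2222 to 2311) and the widest class, and 70.9% to 72.2% of those in coding transcripts are centred in coding sequence.

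These peaks were wide. Their median width was 867 nt in scramble set 1 (quartiles 630.5 and 1248.5, range 131 to 7808), against 538 nt over the whole list and 442 nt over the peaks found in 1 to 5 libraries. A wide peak meets an overlap rule more easily, so width is tied to the choice. The peaks that matched them had median widths of 734 nt in Mettl14 knockdown set 1, 726 nt in Mettl3 knockdown set 1, 915 nt in scramble set 2, 780 nt in Mettl14 knockdown set 2 and 752 nt in Mettl3 knockdown set 2. Widths in the 4 knockdown libraries were thus below those of both scramble libraries. Within each set the whole lists were narrower after knockdown too. Their medians for Mettl14 and Mettl3 were 479 and 523 nt against 538 nt in set 1, and 570 and 539 nt against 651.5 nt in set 2. The stretch covered in all 6 libraries had a median of 602 nt, or 75.5% of the scramble set 1 peak. In 14 peaks (0.628%) no base was common to all 6. In 1892 (84.8%) a single peak stood opposite in each library, and the rest were split, most often in Mettl14 knockdown set 1 (170 peaks). Between 39 and 70 of the 2231 shared a peak of another library with a neighbour, and the values of such neighbours are not independent.

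Fold enrichment is the peak caller's ratio of IP to control, as the authors deposited it. Its median over the 2231 peaks was 14.4 in scramble set 1, 14.5 in Mettl14 knockdown set 1 and 15.5 in Mettl3 knockdown set 1. In set 2 it was 13.2 in the scramble, 10.95 in the Mettl14 knockdown and 11 in the Mettl3 knockdown library. The knockdown medians were thus above the scramble median in set 1 and below it in set 2. The libraries are not known to be on 1 scale, so these levels were not tested against each other. The values of single peaks below are also without the authors' scaling, and the order of libraries within a set can differ after it. In each list the median over all peaks was higher than over these peaks, from 12.9 to 18.8. Narrow peaks with few tags carry the highest ratios. When each list was cut by width into 4 classes of equal size, in the narrowest width class of scramble set 1 the median was 67.0 for peaks in 1 to 5 libraries and 42.2 for peaks in all 6, and in the widest class it was 8.90 and 12.0.

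Across the peaks, log2 enrichment in scramble set 1 had a Pearson correlation of 0.80 with scramble set 2 and of 0.73 to 0.76 with the 4 knockdown libraries (2231 peaks, which share gene, width and control noise, as a description only). The spread of 1 peak over the 6 libraries, from lowest to highest, had a median of 1.102 on the log2 scale. It stayed within 2-fold for 961 peaks (43.1%) and exceeded 4-fold for 339 (15.2%). Tags, listed for the knockdown libraries only, had medians of 115 and 122 after Mettl14 knockdown and 119 and 105 after Mettl3 knockdown, against 55 to 72 over the whole lists.

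The steadiest peak was in Rbbp6, which encodes an E3 ubiquitin ligase that binds RB1 (chr7:123000608-123002186). Its enrichment in the order scramble, Mettl14 knockdown and Mettl3 knockdown was 4.89, 5.07 and 4.87 in set 1 and 4.80, 4.87 and 5.00 in set 2. The peak of Atp8b2, a phospholipid flippase gene (chr3:89940363-89941682), gave 7.56, 7.93 and 8.46 in set 1 and 8.22, 8.34 and 8.62 in set 2. The peak of Ankrd27, a regulator of endosomal traffic (chr7:35638014-35639074), gave 7.29, 7.24 and 7.49 in set 1 and 7.45, 7.16 and 8.17 in set 2. All 3 are over 1000 nt wide, hold over 150 tags in each knockdown library and lie in last exons. They were chosen for the narrowest range over the libraries, so that no library stands apart in them follows from the choice.

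The widest spread belonged to a peak at chr7:25486433-25486760 with no gene in the tables, whose enrichment was 27.2, 54.98 and 837 in set 1 and 9.72, 18.7 and 38.8 in set 2. The peak of 9030418K01Rik gave 21.1, 21.4 and 536 in set 1 and 99.3, 15.5 and 22.4 in set 2. That of Nlrp6, a gene of an innate immune sensor, gave 200.9, 703 and 66.4 in set 1 and 24.3, 29.9 and 22.1 in set 2. A single library set the top value in each, while the tags in the knockdown libraries differed little (66, 66, 44 and 48 at the chr7 peak in the order Mettl14 and Mettl3 of set 1, then of set 2). Control tags are not listed, so their part in these values was not tested.

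The peaks with the highest lowest-of-6 enrichment were small. At the top was a peak without a gene at chr8:14896779-14897017, 239 nt wide, with 324, 202 and 235 in set 1 and 312, 234 and 300.9 in set 2. It held 10, 9, 14 and 11 tags in the 4 knockdown libraries. The next was in Nlrp4f, an NLR-family gene known from oocytes, with 324, 134 and 269 in set 1 and 136, 182 and 160 in set 2, on 8 to 12 tags. Of the 8 such peaks, 5 had no annotated gene on their strand, and the 8 held between 8 and 58 tags in any knockdown library. The 66 peaks without an annotated gene on their strand had a median width of 445.5 nt, a median of 32 to 42.5 tags and a median enrichment of 29.01 to 39.3 by library. A high ratio in these peaks thus goes with few tags.

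The peaks with the most tags showed the opposite. Ankrd11, a chromatin-binding regulator gene, held 1744, 1746, 2105 and 1685 tags in a peak of 6626 nt, and its enrichment was 3.92, 5.17 and 5.29 in set 1 and 3.94, 4.05 and 4.25 in set 2. Plec, which encodes a cytoskeletal linker, held 1065 to 1375 tags at an enrichment of 4.12 to 5.18. Ahdc1, a gene of an AT-hook DNA-binding protein, held 1025 to 1331 tags at 7.38 to 14.0. A peak listed under Il4i1 held 1043 to 1164 tags at 3.22 to 4.65, but its centre lay outside the exons of the Il4i1 transcript. Spen, which encodes a transcriptional corepressor needed for X inactivation, had the widest peak of all, 7808 nt in an internal exon of 8020 nt. Its enrichment was 9.52, 5.89 and 6.59 in set 1 and 9.45, 5.66 and 8.33 in set 2, on 973 to 1129 tags. The other widest peaks were 6840 nt in Eppk1 (no gene in the tables, named from the reference), 5643 nt in the transcriptional regulator gene Rai1 and 5617 nt in the zinc-finger gene Zfp646. All of these except the Il4i1 peak lie in coding sequence of exons of 3381 to 11245 nt.

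**Figure D2:**
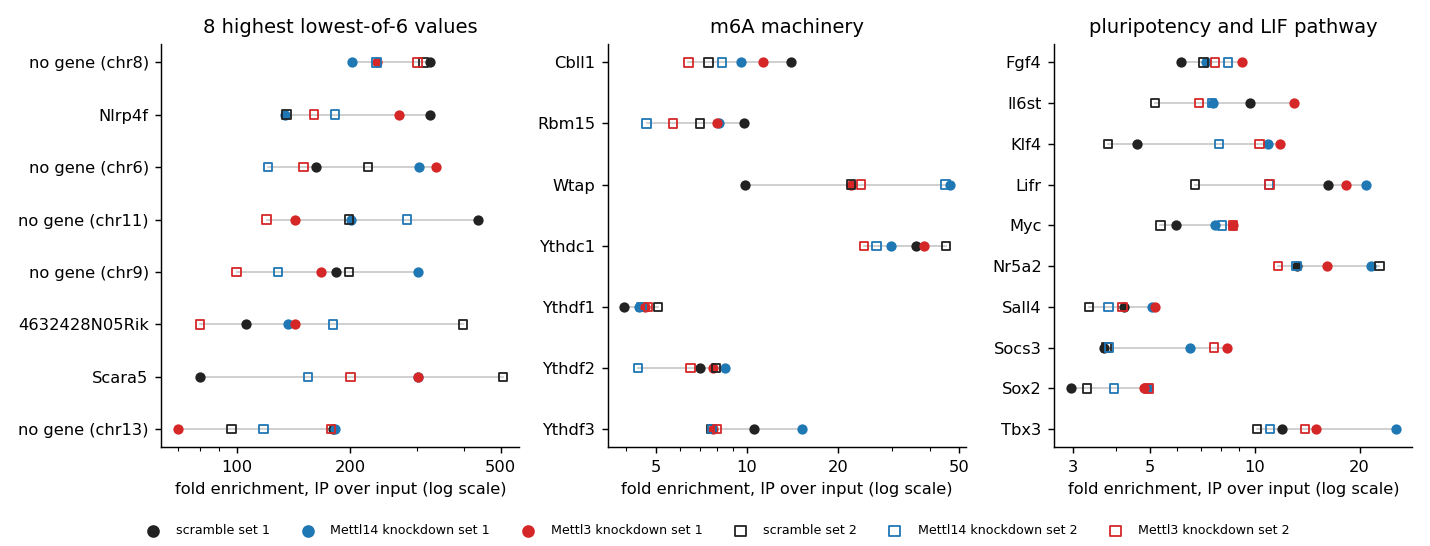
Each row is a peak found in all 6 libraries, and the 6 symbols give its fold enrichment of IP over control on a log axis (black scramble, blue Mettl14 knockdown, red Mettl3 knockdown, filled for set 1 and open for set 2). The 8 peaks at the left lie between 69.8 and 507, whereas the peaks in m6A machinery genes and in pluripotency genes lie below 50 in all libraries.

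Position was not used to choose the peaks. Of the 2231, 2011 (90.1%) were centred in an exon of a coding transcript, 117 in a transcript without coding sequence, 37 outside the exons of their transcript and 66 in no annotated gene of the same strand. Of the 2011, 1425 (70.9%, 95% Wilson interval 68.8 to 72.8, for counting error only) were centred in coding sequence, 544 (27.1%, 25.2 to 29.04) in the 3′ UTR and 42 (2.09%, 1.55 to 2.81) in the 5′ UTR. The last exon held 1276 (63.5%) and internal exons 490 (24.4%). Within 200 nt of the stop codon lay 467 (23.2%, 21.4 to 25.1), of which 210 were on the coding side and 257 on the UTR side. Coding sequence of internal exons held 475, and these exons were long: their median was 1153 nt, and 99.6% of these peaks lay in exons longer than 400 nt.

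Coding sequence took a larger share in scramble set 1 as a peak was shared by more libraries. The share centred in coding sequence was 49.8% for peaks in that library alone, 55.8% for those in 1 to 5 libraries and 70.9% for those in all 6. In each of the other 5 lists the share was also higher for peaks in all 6 libraries than for those in 1 to 5, by the least in Mettl14 knockdown set 2 (72.2% against 69.7%). These lists did not rise at every step: in Mettl14 knockdown set 2 the share was 74.2% for peaks in 2 libraries, and in scramble set 2 it was 62.3% for peaks in 1 library and 58.6% for those in 2. In scramble set 1 the 3′ UTR share was 45.1%, 40.0% and 27.1%. The share near the stop codon was 33.7%, 32.2% and 23.2%. The median length of the internal exons holding a peak was 621, 795 and 1153 nt. These differences go in part with width. Within the 4 width classes of scramble set 1, the share near the stop codon was 36.5% against 35.6% in peaks of 1 to 5 libraries, 38.0% against 36.2%, 35.3% against 32.4%, and in the widest class 13.1% against 19.3%. The lower pooled share near the stop codon was thus not seen in the 3 narrower classes. The coding share was higher in each of the 4 classes: 75% against 56.1%, 57.96% against 55.6%, 64.2% against 53.1% and 76.98% against 60.03%. Over 24 strata (6 lists by 4 width classes) the coding share was higher for peaks of all 6 libraries in 21, and the median exon length in 24. Their share near the stop codon was higher in 16 strata and lower in 8. The classes do not make the widths equal: within those of scramble set 1 the median width was 302 nt against 247 nt in peaks of 1 to 5 libraries, 453 against 432, 692 against 652 and 1198 against 1037. The lists share sites, so these strata are not independent.

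**Figure D3:**
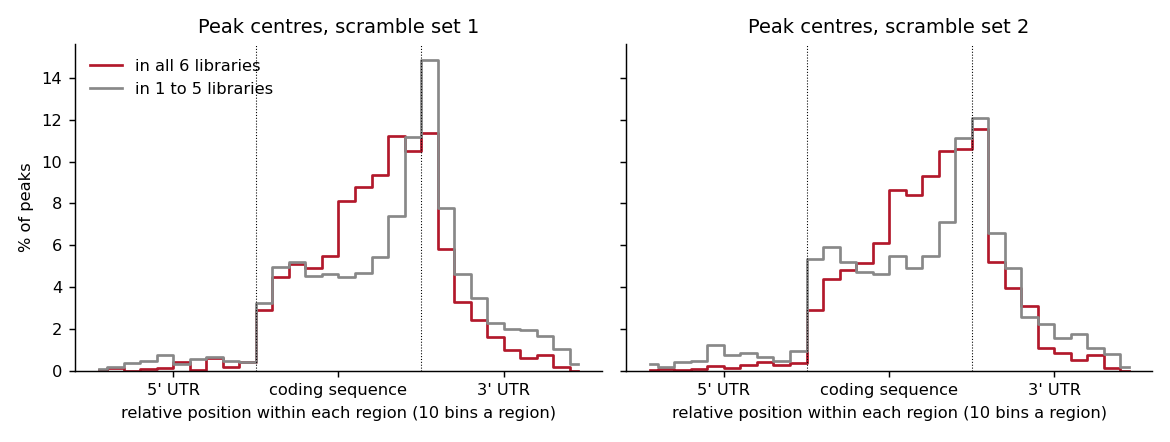
The share of peak centres in each of 10 bins of the 5′ UTR, coding sequence and 3′ UTR is plotted for scramble sets 1 and 2, in red for peaks found in all 6 libraries and in grey for peaks of 1 to 5 libraries. In set 1 the first bin of the 3′ UTR holds 11.4% of the red and 14.9% of the grey peaks, and the red line is the higher one over the later bins of coding sequence except the last.

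By place, coding sequence of internal exons had a median enrichment of 12.1 in scramble set 1 and 11.4 in scramble set 2. The last exon's coding sequence had 14.5 and 13.5, the 3′ UTR 15.1 and 13.6, and the stop codon window 14.9 and 14.1. The median width was 901 nt in internal coding exons, 903 nt in last coding exons, 1114 nt in the coding sequence of first or single exons, 779 nt in the 3′ UTR and 703 nt near the stop codon.

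The motif GGACT was counted on the transcript strand in 200 nt around the peak centre. It was present in 33.6% of the 2011 peaks. The mean over the 59 other orderings of its letters was 16.0%, and AGTCC, the reverse complement, was present in 17.9%. Pooled over widths, peaks in 1 to 5 libraries had GGACT in 34.0%, so the pooled shares hardly differed. Within width classes the shares were apart. In the narrowest width class of scramble set 1 GGACT was present in 55.8% of the peaks found in all 6 libraries and in 40.3% of those in 1 to 5, in the next classes in 46.1% and 38.5% and in 38.2% and 29.2%, and in the widest in 27.4% and 24.6%. In scramble set 2 the shares were 48.1% and 35.5%, 43.9% and 36.7%, 35.0% and 26.6%, and 27.8% and 21.2%. Over the 24 strata GGACT was more frequent in the peaks of all 6 libraries in 23. The other orderings were also more frequent in 22 of the 24, by less (16.9% against 15.6% in the narrowest width class of scramble set 1). The narrowest class held only 52 such peaks in coding transcripts in scramble set 1.

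**Figure D4:**
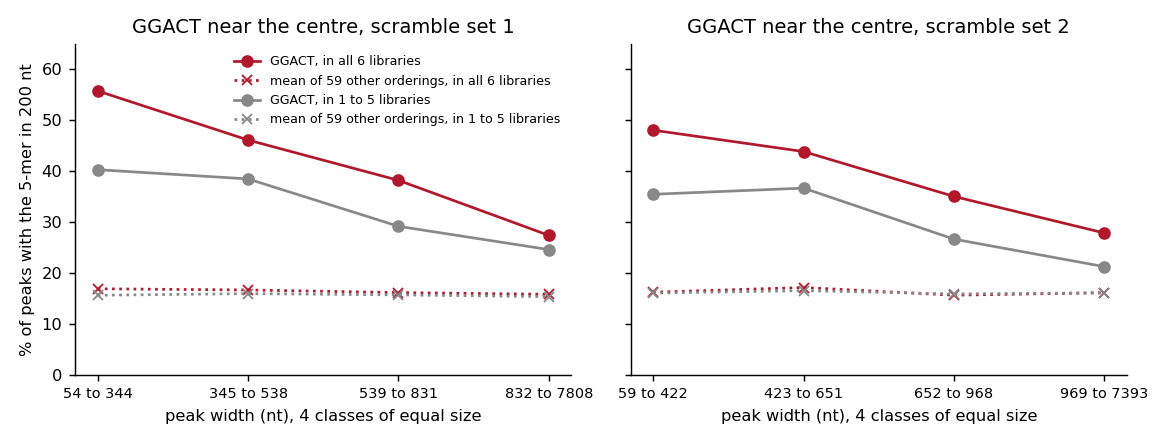
The share of peaks with GGACT in 200 nt at the centre is plotted by width class (nt) for scramble sets 1 and 2, with the mean of the 59 other orderings as dotted lines. In each class of both lists the peaks found in all 6 libraries (red, 55.8% down to 27.4% in set 1) lie above the peaks of 1 to 5 libraries (grey), and the dotted lines stay between 15.3% and 17.1%.

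Counted over whole peaks of scramble set 1, 76.5% of those found in all 6 libraries held GGACT at least once. Its density was 1.64 copies per kb, against 0.937 for the mean of the other orderings. Peaks of 1 to 5 libraries held it at least once in 59.2% but at a higher density, 1.75 copies per kb, and those of scramble set 1 alone at 1.91. In scramble set 1 the order of the densities over whole peaks is thus opposite to that of the shares at the centre within width classes. Against peaks of 1 to 5 libraries, those of all 6 had the lower density in each list of set 1. They had the higher density in each list of set 2, so the order differed between the sets. In the peaks found in all 6 libraries, bases covered by all 6 held 1.88 copies per kb and the remaining bases 0.968. The other orderings had 0.966 and 0.856 there. The stretch that all libraries cover was thus the denser part. It also held most of the exonic bases, 1483 kb against 524 kb, so the number of copies there follows in part from its length. The most copies, 13, were in a 2525 nt peak of Son, which encodes a nuclear speckle splicing factor with long repeats. Among the other peaks named here, Rai1 held 10 copies, Zfp646 9, and Spen, Ankrd11 and Ahdc1 8 each.

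Summits are listed for the knockdown peaks. Within 50 nt of the summit GGACT occurred at 3.17 and 2.97 per kb in Mettl14 knockdown sets 1 and 2, and at 3.11 and 2.89 per kb in Mettl3 knockdown sets 1 and 2. At 300 to 500 nt from the summit it occurred at 1.18 to 1.24 per kb. Peaks of 1 to 5 libraries had 2.45 to 2.91 per kb near the summit and 1.08 to 1.14 far from it. The profile was not symmetric. From 50 to 200 nt on the 3′ side of the summit GGACT occurred at 2.42, 2.41, 2.36 and 2.58 per kb in the 4 libraries, and over the same distance on the 5′ side at 1.32, 1.31, 1.35 and 1.26. The other orderings were at 0.929 to 0.949 and 0.921 to 0.943. The peaks of 1 to 5 libraries had the same lean, with 2.01 to 2.21 on the 3′ side and 1.09 to 1.27 on the 5′ side.

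**Figure D5:**
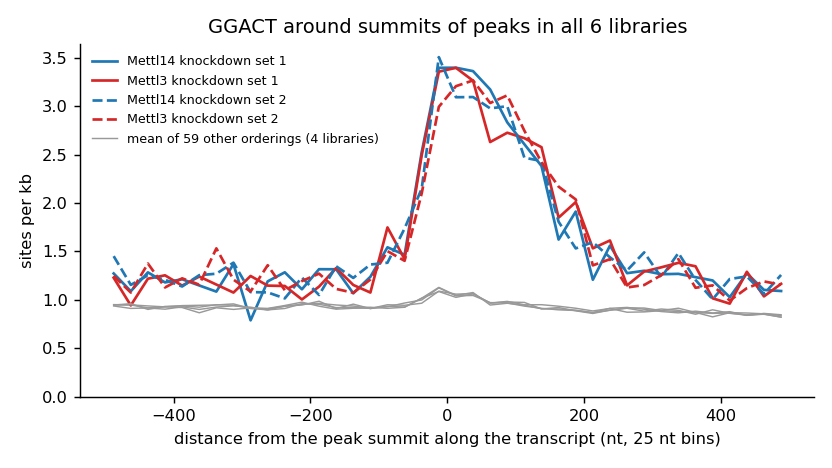
GGACT sites per kb are plotted in 25 nt bins against the distance from the summit along the transcript, for the peaks found in all 6 libraries, in each of the 4 knockdown libraries, with the mean of the 59 other orderings in grey. The 4 lines are high within 50 nt of the summit (2.89 to 3.17 per kb) and stay above 2 for over 100 nt on the 3′ side, while the grey lines stay close to 1.

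Most genes had 1 such peak. Of the 1856 genes, 1635 had 1, 188 had 2 and 33 had 3 or more, so that 11.9% had at least 2. Counting all scramble set 1 peaks, 40.8% of these genes had at least 2, against 17.8% of the 3075 genes that held none of the 2231. A gene with more peaks has more chances to hold one of the chosen, so this is tied to the rule.

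Ahnak2, which encodes a giant scaffold protein made of repeats, had 10 of these peaks, at chr12:112776103-112785692. They lie side by side, some share a knockdown peak with a neighbour, and the reference splits the locus into 3 transcript models. Over the 10 peaks, enrichment in scramble set 1 ran from 8.93 to 52.2 and in Mettl3 knockdown set 2 from 8.82 to 24.4. GGACT was in 1 of the 10, whereas GGACC was in the other 9, with 2 to 7 copies each. GGACA was in each of the 10, with 2 to 6 copies. A near-identical repeat can take reads from its copies, so the separate peaks are uncertain.

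D8Ertd82e, which encodes a pseudokinase, had 5. Its peak at chr8:36139362-36140154 gave 39.0, 16.6 and 23.8 in set 1 and 20.1, 11.6 and 10.4 in set 2, the scramble library being the highest of each set. Irs2, the insulin receptor substrate, had 4, with 3 in its first exon that share a single peak of 894 tags in Mettl14 knockdown set 1. The remaining one, in the 3′ UTR at chr8:10985903-10987074, had an enrichment of 104 in scramble set 1 and of 14.2, 16.9, 14.2, 8.81 and 12.1 in the others, in the order Mettl14 and Mettl3 of set 1, then scramble, Mettl14 and Mettl3 of set 2. The scramble set 1 value stood apart there. Cdk13, a kinase of RNA polymerase II, Nsd1 and Setd1b, which methylate histone H3, Spen and 9830001H06Rik had 4 each.

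Setd1b shows a gene with peaks spread over its coding sequence. Its 4 peaks lie in internal exons of 1209, 825, 552 and 1260 nt, with centres 4796, 3556, 2335 and 1591 nt before the stop codon, and each holds GGACT. In the order scramble, Mettl14 and Mettl3 knockdown, the peak farthest from the stop codon gave 16.9, 11.9 and 14.8 in set 1 and 10.3, 10.97 and 9.91 in set 2. The one nearest to it gave 9.32, 6.73 and 9.83, then 9.07, 7.28 and 8.13. In the first of these peaks the groups overlap over the sets, and in the second both Mettl14 knockdown values lay below the other 4.

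Among 21 genes of m6A writers, erasers and readers, 7 held at least 1 of the 2231 peaks, 5 had other listed peaks only and 9 had none. Other listed peaks include the case of a gene with a peak in each library but with no scramble set 1 peak that met the overlap rule, as in Virma, a scaffold of the writer complex. Over all 6097 genes with any listed peak, 31.4% held at least 1 of the 2231, against 7 of the 12 listed here (58.3%). On the writer side they were Wtap, an adaptor of the complex, Cbll1, its HAKAI subunit, and Rbm15, which recruits it to RNA. On the reader side they were Ythdf1, Ythdf2, Ythdf3 and Ythdc1. Neither Mettl3 nor Mettl14 had a listed peak. The erasers Fto and Alkbh5 had peaks in 4 and 3 libraries.

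The Wtap peak in the 3′ UTR (chr17:12974615-12975563) gave 9.86, 46.5 and 22.1 in set 1 and 22.1, 45.0 and 23.8 in set 2. Mettl14 knockdown libraries were the highest in both sets, but the peak held only 24 to 48 tags in the knockdown libraries and 220 nt common to all 6. The Ythdc1 peak (chr5:86829000-86829520) gave 36.1, 29.9 and 38.2, then 45.3, 26.7 and 24.3. It was placed on a transcript without coding sequence and holds 4 copies of GGACT. Ythdf1 (chr2:180910669-180912350) gave 3.94, 4.41 and 4.63, then 5.10, 4.49 and 4.73. Ythdf2 (chr4:132204115-132205769) gave 7.03, 8.47 and 7.75, then 7.92, 4.37 and 6.52. Ythdf3 (chr3:16204070-16205467) gave 10.5, 15.2 and 7.71, then 7.64, 7.68 and 7.96. These 3 cytoplasmic readers carry the peak at the same place, an internal coding exon of 1521, 1584 and 1599 nt. Rbm15 (chr3:107330209-107333423) gave 9.75, 8.07 and 8, then 7.02, 4.67 and 5.70, so that the scramble library was the highest of each set. Cbll1 (chr12:31487160-31488315) gave 14.0, 9.53 and 11.3, then 7.47, 8.28 and 6.42, and its knockdown values overlap those of the scramble libraries.

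Of 33 pluripotency genes, 10 held such a peak, 6 had other listed peaks only and 17 had none, so that it was 10 of 16 listed genes (62.5%, against 31.4% over all listed genes). Pou5f1 and Nanog were among those with none. The 10 peaks were wide (median 1495.5 nt against 867 nt over all) and of low enrichment (median 6.04 in scramble set 1 and 5.27 in scramble set 2, against 14.4 and 13.2).

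Klf4, a factor of the naive state, gave 4.58, 10.9 and 11.8 in set 1 and 3.79, 7.90 and 10.3 in set 2 (chr4:55530049-55531082), the scramble library being the lowest of each set. Sox2, the partner of OCT4, gave 2.96, 4.93 and 4.80, then 3.30, 3.95 and 4.96 (chr3:34649736-34652061), on 917 to 1021 tags. Myc, a growth regulator, gave 5.93, 7.67 and 8.68, then 5.36, 8.06 and 8.67 (chr15:61989353-61990139). In these 3 genes no knockdown library was as low as either scramble library before the authors' scaling. After it, the authors' deposited tables gave a negative change in set 2 for 6 of the 10 pluripotency peaks with Mettl14 and for 8 with Mettl3. Of the 3 peaks of Sox2, Klf4 and Sall4, 2 were negative in each set 2 table and 0 in set 1. The LIF pathway was represented by its receptor Lifr (16.3, 20.9 and 18.3, then 6.73, 10.98 and 11.03), by the shared receptor chain gene Il6st (9.72, 7.58 and 13.0, then 5.17, 7.54 and 6.92) and by the feedback inhibitor Socs3 (3.70, 6.51 and 8.32, then 3.75, 3.81 and 7.64). In Lifr the sets stood farther apart than the groups. Sall4, a zinc-finger factor, gave 4.22, 5.08 and 5.18, then 3.34, 3.80 and 4.17. Nr5a2, a nuclear receptor, gave 13.2, 21.6 and 16.1, then 22.8, 13.2 and 11.7, with the scramble library lowest in set 1 and highest in set 2. Tbx3, a T-box factor, ran from 10.2 to 25.5, and Fgf4, a growth factor that primes cells for differentiation, from 6.14 to 9.22.

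Of 41 developmental signalling genes, 21 held such a peak, 11 had other listed peaks only and 9 had none. This is 65.6% of the 32 listed genes, against 31.4% over all listed genes. For Fgfr2 both peaks are listed together with a neighbouring gene and are not valued here. The Nodal branch was represented by the ligand Nodal with 2 peaks, the receptors Acvr1b and Acvr2a, the effector Smad3 with 2 and the inhibitor Smad7 with 3, and the BMP branch by the ligand Bmp4. The Hedgehog pathway had its receptor Ptch1 with 2 peaks and the effectors Gli1, Gli2 with 2, and Gli3. Notch signalling had the receptors Notch1 and Notch2 and the ligands Jag1 and Jag2. The Wnt pathway had Axin1, Axin2, Apc and the receptor Fzd7, and FGF signalling had the inhibitors Spry2 and Spry4.

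Axin1 (chr17:26142625-26143619) gave 5.90, 6.66 and 5.35 in set 1 and 5.12, 5.31 and 5.56 in set 2. Axin2 (chr11:108923387-108924053) gave 21.9, 22.03 and 14.3, then 12.4, 13.0 and 9.43. In Axin2 the Mettl3 knockdown library was the lowest of each set, and in Axin1 all 6 values lay between 5.12 and 6.66. Gli3 (chr13:15724741-15726517) gave 43.6, 22.8 and 37.3, then 16.7, 13.3 and 10.5, so that the scramble library was the highest of each set. Jag1 (chr2:137083078-137083563) gave 8.43, 74.6 and 35.4, then 81.3, 25.3 and 22.1, with the scramble library lowest in set 1 and highest in set 2. Bmp4 (chr14:46383752-46384794) gave 10.6, 22.9 and 14.5, then 9.16, 9.40 and 13.0.

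Of 45 chromatin regulators, 15 held such a peak, 15 had other listed peaks only, among them Kmt2a and Bptf with a peak in each library, and 15 had none. The 15 are 50% of the 30 listed genes, against 31.4% over all listed genes. Their 26 peaks lay in coding sequence in 23 cases, 14 of them in internal exons. They included peaks in the H3K4 methyltransferases Kmt2d (3 peaks, listed as Mll2), Kmt2b (2, listed as Wbp7), Setd1a and Setd1b (4), the H3K27 demethylase Kdm6b, the Polycomb protein gene Cbx7, the 5-methylcytosine oxidases Tet2 and Tet3 (2), the remodelers Chd7 (2), Arid1a, Arid1b (2) and Ep400, and the acetyltransferases Ep300 (2) and Crebbp (2). The widest Kmt2d peak (chr15:98843637-98846443) gave 6.51, 8.56 and 8.85 in set 1 and 7.67, 5.41 and 8.93 in set 2. The Crebbp peak in the last exon, centred 1073 nt before the stop codon (chr16:4083954-4086295), gave 8.58, 10.4 and 11.4, then 6.68, 7.93 and 8.16, with the scramble library lowest in each set. Tet2 (chr3:133466309-133468340) gave 4.81, 14.2 and 9.59, then 4.59, 9.40 and 7.40, again with the scramble libraries lowest and with the Mettl14 knockdown libraries highest. The order in both genes is that of values before the authors' scaling. After it, the authors' deposited tables gave a negative change for 25 of the 26 peaks with Mettl14 and all 26 with Mettl3 in set 2. In set 1 it was negative for 13 and 6.

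Of the 31 germ layer and lineage factors 3 held such a peak and 16 had other listed peaks only, which is 15.8% of the listed genes against 31.4% over all. The 29 cell cycle and genome maintenance genes gave 3 of 11 listed (27.3%), and the 33 RNA processing and decay genes 6 of 15 listed (40%), so neither list was far from the share over all genes. The lineage factors were the neural genes Sox1, Sox11 and Zic2. Sox11 (chr12:27341055-27342854) gave 19.5, 7.20 and 8.55, then 15.2, 6.72 and 6.48, with both scramble libraries above all 4 knockdown libraries. Zic2 (chr14:122475348-122476804) gave 15.5, 6.70 and 14.7, then 15.9, 6.58 and 6.94, and Sox1 (chr8:12397309-12397999) 59.3, 39.4 and 67.4, then 39.7, 29.9 and 28.8. In Zic2 the scramble libraries were the highest of their sets, whereas in Sox1 the Mettl3 knockdown library of set 1 lay above its scramble. The RNA genes were Dicer1 and Tnrc6b with 2 peaks each, Tnrc6c, Dcp1a, Smg1 and Son, which act in microRNA maturation, microRNA silencing, decapping, nonsense-mediated decay and splicing. The cell cycle genes were the p53 ligase Mdm2, the damage kinase Atm and E2f3. No listed peak in any library was found in 29 genes of cytosolic ribosomal proteins and housekeeping.

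The change after knockdown was taken from the authors' deposited tables as log2 of knockdown over scramble, after their scaling. In set 1 the authors' deposited tables gave the 2231 peaks a median change of -0.05 for Mettl14 and 0.19 for Mettl3, against -0.06 and 0.22 over all peaks shared in each table. In set 2, where 2228 of the 2231 carry a change, the authors' deposited tables gave medians of -0.58 for Mettl14 and -0.90 for Mettl3, against -0.59 and -0.91. The medians of the peaks found in all libraries were thus close to those of the tables as a whole. All shared peaks numbered 4710 (Mettl14) and 4516 (Mettl3) in set 1, and 3060 and 3337 in set 2. They include the peaks found in all libraries, so close medians and shares are in part fixed by that overlap. A negative change in the authors' deposited tables was found for 54.9% of these peaks with Mettl14 in set 1 (54.6% over all shared peaks), 36.0% with Mettl3 in set 1 (35.2%), 86.8% with Mettl14 in set 2 (84.8%) and 95.1% with Mettl3 in set 2 (93.0%). The set 2 values rest largely on the authors' constants, 0.777 for Mettl14 and 0.609 for Mettl3, whose basis is unstated. Without them the changes in the authors' deposited tables had medians of -0.22 and -0.19 in set 2, with 66.6% and 62.7% of the peaks negative (65.8% and 62.96% over all shared peaks). In set 1 the medians from the authors' deposited tables without the constants were 0.088 for Mettl14, which turns its direction, and 0.18 for Mettl3. Changes beyond 1 on the log2 scale in the authors' deposited tables were made by 14.9% of these peaks (20.4% over all shared peaks), 17.4% (22.7%), 26.2% (29.2%) and 43.6% (45.3%) in the same order. The 2 tables of a set share a scramble library.

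By gene group, the authors' deposited tables gave the 10 pluripotency peaks a median log2 change of 0.40 for Mettl14 and 0.49 for Mettl3 in set 1, and -0.12 and -0.19 in set 2, each above the median of all 2231. Without the authors' constants the set 2 medians of these 10 turned to 0.25 and 0.52 in the authors' deposited tables, with 1 peak negative in each. A negative change in the authors' deposited tables was found for 1 of the 10 with Mettl14 and 0 with Mettl3 in set 1, and for 6 and 8 in set 2. The 26 chromatin regulator peaks had medians of 0.02, 0.22, -0.64 and -0.77 in the authors' deposited tables, in the order Mettl14 and Mettl3 of set 1, then of set 2. The 26 signalling peaks had 0.02, 0.21, -0.26 and -0.45 in the authors' deposited tables, and the 7 peaks of m6A genes 0.02, 0.09, -0.55 and -0.93. Without the constants the set 2 medians in the authors' deposited tables were 0.10 and 0.27 for the signalling peaks, which turns their direction, -0.27 and -0.05 for the chromatin peaks and -0.18 and -0.22 for the m6A genes. The 3 lineage factor peaks had -1.35, -0.08, -1.54 and -1.91 in the authors' deposited tables. Without the constants the medians of these 3 peaks from the authors' deposited tables were -1.21, -0.08, -1.18 and -1.20. These groups were read as counts and medians only, and RNA levels were not analysed here.

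At the border of the overlap rule, the chosen peak with the least overlap was in Rprd2 (chr3:95765417-95766213), with 24 nt in Mettl14 knockdown set 1. A peak without a gene at chr6:83160827-83161499 had 31 nt in Mettl3 knockdown set 2, and one in Loxl1 (chr9:58312538-58312987) had 50 nt in Mettl14 knockdown set 2. Just outside were peaks in Gm20459, Il20rb and Zfp169, which lay 7, 9 and 15 nt from the nearest peak of the library that lacked them. Under an FDR limit of 1% in the 4 knockdown libraries 1069 of the 2231 peaks remained.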

How the data were processed

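The labels' protocols describe poly(A) RNA of J1 mouse embryonic stem cells that was fragmented, pulled down with an anti-m6A antibody and sequenced. Libraries made without antibody (6) are not columns of the tables and are not analysed here. The submitters' processing notes name build mm10 and these tools: Picard 1.74, SAMtools 0.1.18, TopHat2 2.0.6, Bowtie 0.12.7, cutadapt 1.1 and CASAVA 1.8.2. Sources used here state neither the version of the peak caller nor the release of the gene names.

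Per the file headers, the authors deposited 1 table for each pair of a knockdown IP library and a scramble IP library, 4 in all, with peaks called separately in each library. The deposited tag count is the number of tags in a peak. The deposited fold enrichment is a ratio of IP to control within the peak. The deposited signed fold score compares the knockdown peak, multiplied by 1 constant per table of unstated basis, with the scramble peak. The deposited FDR is in percent and reached 9.99%. For peaks shared within a table the scramble enrichment was solved from the signed fold score. Tags, FDR and summits of such peaks are those of the knockdown library, so members have them in the 4 knockdown libraries only. Library totals are not in the tables, so depth was judged by tags per peak.

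Python 3.11.15 with pandas 2.3.3, NumPy 2.4.6 and SciPy 1.17.1 was used. Peaks were joined at an overlap of at least 1 nt on the same strand. Where several peaks overlapped a member, the 1 with the largest overlap gave its value. Each peak was placed, by its centre, on the transcript of its listed gene with most exonic overlap in GENCODE M21, which held 99.7% of the members' listed gene IDs. Sequence was read from the spliced transcript, not from the genome as first planned. Enrichments of different libraries are not known to be on 1 scale, so no test was made between libraries, and peaks of 1 library are not replicates. Shares carry Wilson intervals at the 95% level, which cover counting error only. Joining, transcript positions and motif counting were checked on simulated data.

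The members and the gene lists were chosen with earlier results of these data known. Members were named by 7 rules: the 8 with the highest lowest-of-6 enrichment, the 8 genes with most members, the 5 widest, the 5 with the highest lowest tag count in the 4 knockdown libraries, the 3 with the widest and the 3 with the narrowest range of enrichment, genes of the lists, and the border of the overlap rule. The values of 1 listed gene are not reported here. The alternatives were stricter overlap and FDR, the other scramble library as anchor, leaving out each library, other windows and summits, the scaling of the folds, and reference gene names. Overlap on either strand was added after seeing the data.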

Additional observations from a re-analysis of the deposited data

How the results depend on the processing

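No paired analysis was possible because the results come from no test. The changes are those within each table, which sets a knockdown library beside a scramble library. The share of scramble set 1 peaks found in all libraries was 24.6% when 50% of the peak had to be covered and 23.4% at an FDR limit of 5%. It was 29.6% with overlap on either strand, an alternative chosen after seeing the data. With scramble set 2 as anchor the share was 40.9% of that library's own shorter list of 5438 peaks. The median width was then 898.5 nt and the median enrichment 13.3. At an FDR limit of 5% the median width was 909 nt. At an FDR limit of 1% there were 1069 peaks (13.6%) in 941 genes, 8.40% of which had 2 or more, with a median width of 1056 nt and 18.2% near the stop codon. Leaving out each of the 5 other libraries in turn gave 2291 to 2613 peaks in 1900 to 2145 genes and shares of 29.1% to 33.1%. The median width was 840 to 862 nt and the median enrichment 14.3 to 14.7. Leaving out scramble set 1 moved the anchor to scramble set 2 and gave 2239 peaks in 1872 genes, 41.2% of that list. Their median width was 895 nt and their median enrichment 13.3. The share near the stop codon was 12.1% and 42.0% with windows of 100 and 400 nt. Placed by the summit in Mettl14 knockdown set 1 it was 27.9%, and GGACT was then present in 41.3%. Without the authors' constant the median log2 change for Mettl14 in set 1 was 0.088, and in set 2 the medians shrank to -0.22 for Mettl14 and -0.19 for Mettl3. At an FDR limit of 1% the median for Mettl14 in set 1 was -0.0036. With the median of all shared peaks set to 0 the medians were 0.0087 and -0.036 for Mettl14 and Mettl3 in set 1, and 0.011 and 0.012 in set 2. The cause of these shifts was not tested. Of the values under an alternative, 107 kept their direction and stayed within a set tolerance, 26 moved beyond it and 5 reversed. The reversed ones were the Mettl14 median in set 1 without the constant and the medians with all shared peaks set to 0. The set 2 medians without the constants and the Mettl14 median at an FDR limit of 1% were among the 107. The tolerance was 1.5 times for counts, the Wilson interval for shares and 1 SD between the sets for medians. That SD is wide for the changes. Peaks with few tags limit the precision: the fewest tags in a listed peak were 4.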

Other observations

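Some gene families held a peak found in all 6 libraries more often than genes in general. Of 205 genes with a symbol starting with Zfp and a peak in scramble set 1, 101 (49.3%) had a peak in all 6 libraries, and of 29 Zbtb genes 20 (69.0%) did, against 37.6% over all genes with a peak. The share was 7 of 12 (58.3%) for Sox, 12 of 23 (52.2%) for Fox, 5 of 10 (50%) for Fzd, 4 of 10 (40%) for Kdm and 1 of 5 (20%) for Pcdh genes. These families were picked after their counts had been seen, and no test was made. Zfp genes hold near-identical copies of each other's finger exons, so their peaks are uncertain where reads could be placed on a copy. By autosome, the share of scramble set 1 peaks found in all 6 libraries ran from 21.3% on chromosome 17 to 36.4% on chromosome 18, and it was 23.6% on the X chromosome.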
